A study of Mus musculus with 8 samples.

Results

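The cadherins and protocadherins of the mouse were followed from the fetal to the young postnatal gut wall. Members were the protein-coding genes of the deposited table whose name is Cdh followed by a digit or starts with Pcdh. They number 92 of 46635 listed loci, and of 22186 protein-coding ones. They comprise 23 Cdh genes, 12 protocadherins outside the gene clusters, and the 14 alpha, 22 beta and 21 gamma genes of the clustered protocadherins (Pcdha, Pcdhb and Pcdhg). A further locus with a matching name, Pcdhgb8, is listed as a transcribed pseudogene and was left out.

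Wild-type mice gave 8 RNA-seq libraries of small-intestine mesenchyme, 4 of pups at postnatal day 14 (P14) and 4 of fetuses at E17.5. The study asked about alternative splicing during gut elongation; how the genes of these families differ in level between the ages is the comparison made here. Whole intestines were treated with EDTA to take off the epithelium, and RNA was extracted with TRIzol from what was left of the small intestine. The material is thus the whole remaining wall, a mix of connective tissue, muscle, nerves, vessels and immune cells, and in such bulk samples fewer cells of a type and less RNA per cell cannot be told apart. The submitters speak of 4 mice at each age, the fetal age label reads E17 where the protocol has E17.5, and the strain is not given in the labels. Whether a library is 1 mouse is not stated, so p-values cover no more than the spread between the libraries.

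Cadherins hold neighbouring cells together through calcium-dependent binding of their extracellular repeats, and the classical types I and II are tied to actin inside the cell by beta-catenin, p120-catenin and alpha-catenin. Type I members tend to mark whole tissues, such as E-cadherin in epithelia and N-cadherin in nerve and mesenchyme, whereas type II members include VE-cadherin of endothelium and cadherin-11 of mesenchyme. Protocadherins adhere more weakly and lack the catenin-binding tail; the delta protocadherins act in cell sorting and axon growth. The clustered alpha, beta and gamma genes, best known from neurons, each have their own promoter and variable first exon. In the alpha and gamma clusters these exons are spliced to shared constant exons, while the beta genes are single-exon units.

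Expression is given as FPKM, the authors' value of reads scaled to gene length and library size. The reads recovered from the FPKM steps summed to between 16660998 and 19496632 per library, and 3 reads is the limit that a count of 0 allows, for counting error only. The FPKM of the 92 members summed to 330 to 348 in the 4 E17.5 libraries and to 244 to 591 in the P14 libraries. P14 replicate 1 stood apart, with correlations of 0.780 to 0.873 with the other P14 libraries over the tested genes, against 0.956 to 0.974 among those 3. Summed over 15 markers of epithelium, the FPKM was 4879.8, 147, 743 and 270.05 in P14 replicates 1 to 4, against 42.6 to 64.8 in the E17.5 libraries. Of the 11 tested epithelial markers, 10 were called higher at P14, and 10 without P14 replicate 1, against 9.72% and 22.6% of all tested genes. Each of these calls was lost on leaving out certain other single libraries, from 2 to 6 of them by marker. By the sum, epithelial RNA was above the E17.5 level in every P14 library and most of all in replicate 1. For this reason the main results are given with all 8 libraries and also without P14 replicate 1.

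Genes with 1 FPKM or more in at least 4 libraries were tested, 14044 in all, and 37 of the 92 members were among them. Of the tested members, 33 had at least 1 library of each age at the minimum, Cdh1 and Cdh17 passed only through P14, and Pcdhb7 and Pcdhga11 only through E17.5. Among the 33, Cdh10, Pcdhgb2 and Pcdhga7 had 1 P14 library at the minimum and Pcdh19 had 2, against 4 at E17.5, so their entry also rested on their E17.5 values. The P14 libraries were compared with the E17.5 libraries by limma on log2(FPKM + 1), and a gene was called at an adjusted p under 0.05, adjusted by Benjamini-Hochberg across the 14044 genes. Fold changes below are on this log2(FPKM + 1) scale, P14 over E17.5, which understates the change of genes with low values.

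No tested member was called higher at P14 and 9 were called lower, with 16 at an unadjusted p under 0.05. Among all tested genes 9.72% were called higher and 15% lower. The genes lower at P14 were Cdh5, Cdh11, Cdh4, Cdh10, Pcdh18, Pcdh12, Pcdh19, Pcdhb7 and Pcdhga11. Without P14 replicate 1, 4 members were called higher (Cdh17, Cdh13, Pcdh7 and Pcdhb14) and 11 lower, which were the same 9 plus Cdh2 and Cdh6; of all tested genes 22.6% were then higher and 26.9% lower. The 2 ages did not overlap in 15 tested members. P14 lay above E17.5 in Cdh1 and Cdh17 and below it in 13, against 15.6% above and 20.4% below among all tested genes. In Cdh1, Cdh17, Pcdhb7 and Pcdhga11 the filter fixed this in advance. All 4 libraries of 1 age and none of the other reached its minimum. The median log2 fold change over the tested members was -0.22, and -0.07 without P14 replicate 1, against 0.0022 and -0.03 over all tested genes.

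**Figure D1:**
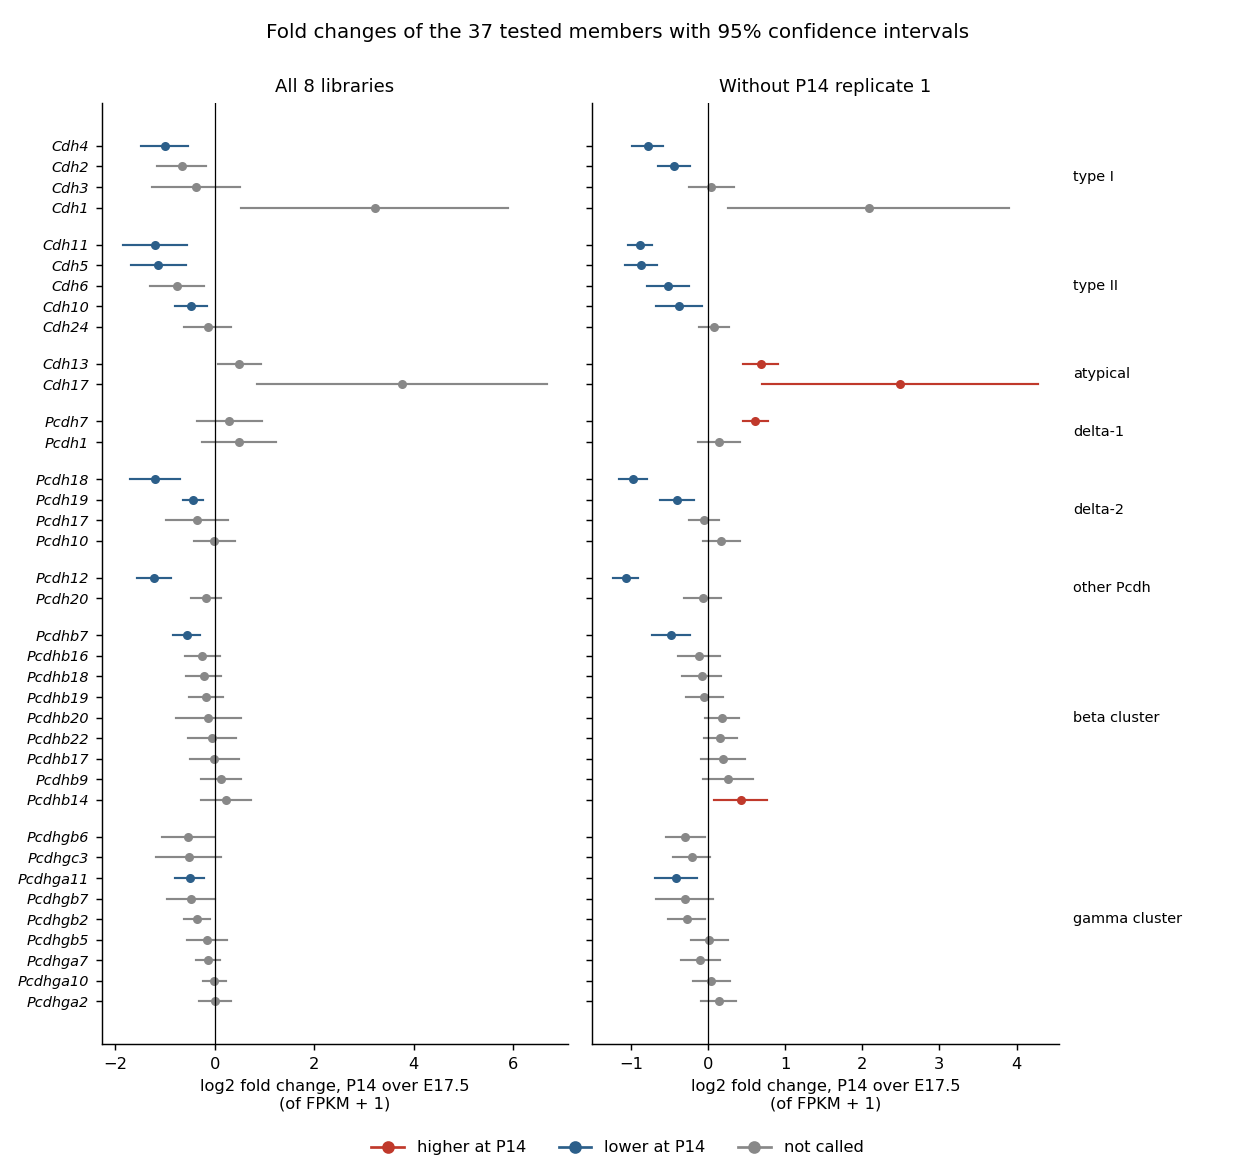
Log2 fold change of FPKM + 1 (x axis, P14 over E17.5) of the 37 tested members, grouped by subfamily down the page, with all 8 libraries on the left and without P14 replicate 1 on the right; the x scales differ. Points are limma estimates, lines their 95% confidence intervals and colours the call. The intervals of Cdh1 and Cdh17 are the widest, and 9 members are called lower on the left, 4 higher and 11 lower on the right.

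Among the type II cadherins, the vessel and mesenchyme genes that dominate the family fell. Of 13 type II genes 5 were tested, 3 were lower at P14 and none higher, against 15% and 9.72% of all tested genes. Cdh5, which encodes VE-cadherin of endothelial junctions, is a gene of chromosome 8 (GRCm39, 104828247 to 104871136, plus strand) and had the highest mean level of the subfamily. It had 26.6, 51.2, 51.4 and 62.6 FPKM in P14 replicates 1 to 4, against 96.2, 99.4, 109 and 100.3 FPKM in the E17.5 libraries. Every P14 value lay below every E17.5 value, and replicate 1 was the lowest. The mean was 47.9 ± 15.2 FPKM at P14 and 101 ± 5.71 FPKM at E17.5 (SD, n = 4 each), a log2 fold change of -1.13 (SE 0.242, adjusted p = 0.0141). Without P14 replicate 1 it was -0.87 (SE 0.0926, adjusted p = 0.000176).

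Some markers of blood endothelium were lower at P14, as Cdh5 was, and others were not. Of 12 such markers, all tested, 6 were lower at P14 and none higher, against 15% and 9.72% of all tested genes. Their median log2 fold change was -0.86. Among the 6, Tie1 and Emcn each lost the call on leaving out any of 4 single libraries. The summed FPKM of the 12 markers was 327 to 748 in the P14 libraries and 852 to 946 in the E17.5 libraries. Kdr, a VEGF receptor, and Pecam1, an endothelial adhesion protein, had log2 fold changes of -1.31 and -1.06 (adjusted p = 0.00485 and 0.00893), whereas Cldn5, the claudin of endothelial tight junctions, was at 0.43 (adjusted p = 0.323). Without P14 replicate 1, 7 of the 12 markers were lower and 2 higher, Cldn5 and Egfl7, against 26.9% and 22.6% of all tested genes. Named here beside Cdh5, these markers were chosen after their values were seen, and the part of endothelial cell number in the fall of Cdh5 was not tested.

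Cdh11, which encodes the mesenchymal cadherin first described in osteoblasts (chromosome 8, 103358727 to 103512125, minus strand), was at 11.6, 29.6, 27.1 and 30.5 FPKM in the P14 libraries, against 53.6, 54.8, 55.9 and 53.3 FPKM at E17.5. The E17.5 libraries lay within a few FPKM of each other, and P14 replicate 1 was well under the other P14 libraries. Its log2 fold change was -1.2 (SE 0.282, adjusted p = 0.0197), and -0.88 (adjusted p = 4.13e-05) without P14 replicate 1. Leaving out E17.5 replicate 2, 3 or 4 raised the adjusted p to between 0.0537 and 0.0598. Of 10 fibroblast markers 9 were tested, 2 of them higher and 1 lower at P14, with a median log2 fold change of -0.15. Without P14 replicate 1 it was 4 higher and 1 lower, and the median was 0.12, of the opposite sign. Among all tested genes 9.72% were higher and 15% lower, and 22.6% and 26.9% without that library.

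Cdh6, a cadherin of kidney and neural crest derivatives, had 1.55, 4.81, 3.36 and 3.56 FPKM at P14 and 5.46, 5.75, 6.87 and 6.0 FPKM at E17.5. The ages did not overlap, yet the difference missed the threshold with all libraries (-0.76, SE 0.238, adjusted p = 0.0509) and passed it without P14 replicate 1 (-0.52, adjusted p = 0.00773). Cdh10, mostly known from the brain, was low throughout. Its level was 0.391, 1.10, 0.609 and 0.740 FPKM at P14, against 1.17, 1.25, 1.45 and 1.56 FPKM at E17.5. The ages did not overlap, and its log2 fold change of -0.47 was called narrowly (SE 0.143, adjusted p = 0.0440), as was -0.38 without P14 replicate 1 (adjusted p = 0.0388). The call was lost on leaving out P14 replicate 3 or 4 or any single E17.5 library, with adjusted p of 0.0673 to 0.111, and with a looser filter of 0.1 FPKM (adjusted p = 0.0550).

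Cdh24, a further type II cadherin, was not called. It had 3.38, 7.29, 6.88 and 6.43 FPKM at P14 and 7.20, 6.54, 6.01 and 6.18 FPKM at E17.5, a log2 fold change of -0.14 with a 95% interval from -0.61 to 0.34. It was 0.073 (interval -0.12 to 0.27) without P14 replicate 1. The other 8 type II genes stayed below the filter. Among them Cdh22, described mainly in brain, had the clearest pattern, with 0.224, 0.127, 0.141 and 0.302 FPKM at P14 and 1.6, 1.77, 1.21 and 0.830 FPKM at E17.5. These ranges did not overlap, and the mean was 0.199 ± 0.0813 FPKM at P14 and 1.35 ± 0.420 FPKM at E17.5 (SD, n = 4 each). When the filter was loosened to 0.1 FPKM, at which 79 members were tested, Cdh22 had a log2 fold change of -0.96 (SE 0.142, adjusted p = 0.00482). At that filter 12 members were lower, with Cdh22, Pcdhb4, Pcdhb5 and Pcdhga12 added and Cdh10 lost, and none higher, against 11% and 7.81% of the 19815 genes tested. The same filter without P14 replicate 1 gave 18 lower and 7 higher, against 20% and 20.3% of those genes.

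Of the remaining type II genes, Cdh19, a cadherin of Schwann cell precursors, was at 0.414 to 1.01 FPKM at P14 and 0.432 to 0.606 FPKM at E17.5. Cdh20 was at 0.715 to 1.01 FPKM at P14 and 0.324 to 0.748 FPKM at E17.5. At the looser filter it was not called with all libraries (0.31, adjusted p = 0.0873). Without P14 replicate 1 it was called higher there (0.35, adjusted p = 0.0435). Cdh9, a cadherin best known from synapses, stood at 3.89 FPKM in P14 replicate 1 (214 reads), against 0.150 to 0.322 FPKM in the other P14 libraries and 0.266 to 0.499 FPKM at E17.5. That single high value sits in the library with the most epithelial RNA. Cdh8 did not exceed 0.550 FPKM in any library, Cdh18 0.339, Cdh12 0.187 and Cdh7 0.0256.

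The type I cadherins did not move together. Of 5 genes 4 were tested, and only Cdh4 was called, lower at P14. Cdh4, R-cadherin of retina, nerve and muscle (chromosome 2, 179084216 to 179541168, plus strand), had 0.401, 1.55, 1.5 and 1.63 FPKM at P14, against 3.69, 3.45, 3.29 and 3.27 FPKM at E17.5. The highest P14 library was under every E17.5 library, and P14 replicate 1 held only 46 reads of the gene. The mean was 1.27 ± 0.581 FPKM at P14 and 3.42 ± 0.197 FPKM at E17.5 (SD, n = 4 each), a log2 fold change of -1.01 (SE 0.208, adjusted p = 0.0122). Without P14 replicate 1 it was -0.79 (adjusted p = 0.000197).

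Cdh2 encodes N-cadherin, the cadherin of neurons, heart and mesenchyme. It had 2.52, 6.14, 4.87 and 5.44 FPKM at P14 and 7.36, 7.80, 8.30 and 7.75 FPKM at E17.5. The ages were apart, and its log2 fold change was -0.66 (SE 0.213, adjusted p = 0.0550) with all libraries and -0.45 (SE 0.0890, adjusted p = 0.00390) without P14 replicate 1. Cdh3, P-cadherin of placenta and basal epithelia, overlapped between the ages at 2.24, 10.4, 8.12 and 9.20 FPKM at P14 and 8.29, 8.51, 7.97 and 11.3 FPKM at E17.5. Its log2 fold change was -0.37 (95% interval -1.25 to 0.50), and 0.04 (interval -0.26 to 0.33) without P14 replicate 1. Cdh15, M-cadherin of skeletal muscle, was at 0 to 0.257 FPKM.

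Cdh1, E-cadherin of epithelia, and Cdh17, the liver-intestine cadherin of enterocytes, had the widest range of all members. Cdh1 (chromosome 8, 107329982 to 107396879, plus strand) was at 161, 1.0, 21.9 and 6.45 FPKM in P14 replicates 1 to 4, against 0.388, 0.559, 0.845 and 0.872 FPKM at E17.5. Cdh17 (chromosome 4, 11758157 to 11817905, plus strand) was at 296, 1.43, 25.6 and 8.73 FPKM at P14, against 0.394, 0.403, 0.768 and 0.591 FPKM at E17.5. In both genes every P14 library lay above every E17.5 library, which their entry through P14 alone had fixed in advance. The P14 replicates ran in the order 1, 3, 4, 2, the order of the summed epithelial markers. This order was found in 3 of the 37 tested members and in 1 of the 55 untested ones.

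With such spread at P14, neither gene was called with all libraries. The log2 fold change of Cdh1 was 3.21 (SE 1.16, adjusted p = 0.0788), and 2.08 (adjusted p = 0.0602) without P14 replicate 1. That of Cdh17 was 3.76 (SE 1.27, adjusted p = 0.0635), and 2.48 (SE 0.744, adjusted p = 0.0316) without P14 replicate 1. Leaving out P14 replicate 2, the library with the least epithelial RNA, instead gave 4.19 for Cdh1 and 4.79 for Cdh17 (adjusted p = 0.0219 and 0.0208). In P14 replicate 1 these 2 genes made up 31.3% and 57.6% of the summed FPKM of the Cdh genes, where Cdh5 and Cdh11 together made up most of it at E17.5, at 50.8% to 53.1% and 27.1% to 28.3%. The tested epithelial markers were called higher at P14 in 10 of 11 cases, calls that depended on single libraries as given above. The part of remaining epithelium in the values of Cdh1 and Cdh17 was not tested.

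Of the other atypical cadherins, Cdh13 encodes T-cadherin, a GPI-anchored receptor of adiponectin found on vessels and muscle. It had 1.48, 2.95, 2.87 and 3.50 FPKM at P14 and 1.54, 1.72, 1.44 and 1.55 FPKM at E17.5. P14 replicates 2 to 4 were above all E17.5 libraries, while replicate 1 lay among them. It had a log2 fold change of 0.50 (SE 0.185, adjusted p = 0.0841) with all libraries and 0.68 (SE 0.0977, adjusted p = 0.000800) without P14 replicate 1. Cdh26, an epithelial member, reached 1.25 FPKM in P14 replicate 1 and 0.160 to 0.420 FPKM elsewhere. Cdh23, a tip-link protein of hair cells, stayed at or under 0.149 FPKM; Vsir, on the opposite strand of the same locus, was at 4.63 to 12.0 FPKM. Cdh16, the kidney cadherin, had 4 reads in all, in 1 E17.5 library.

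**Figure D2:**
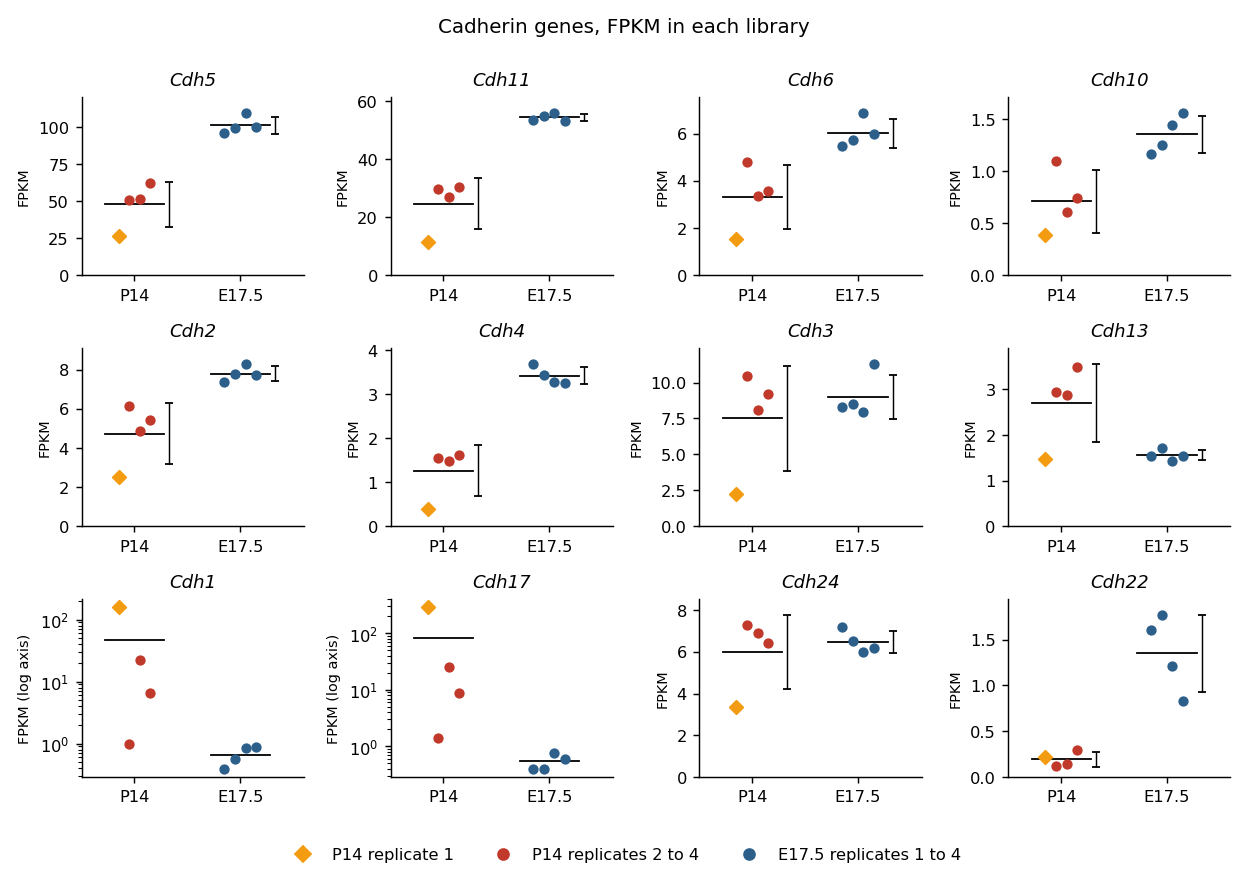
FPKM (y axis; log where the axis says so) of 12 Cdh genes in each P14 library (left in each panel, replicate 1 as a diamond) and each E17.5 library (right), with the mean as a line and, on linear axes, the SD as a bar. Cdh5, Cdh11 and Cdh4 are lower in every P14 library, Cdh1 and Cdh17 are far above the rest in P14 replicate 1, and Cdh13 is higher in P14 replicates 2 to 4.

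Of the 12 protocadherins outside the clusters 8 were tested, and 3 were lower at P14, against 15% of all tested genes. The delta-2 gene Pcdh18 (chromosome 3, 49697740 to 49711992, minus strand), had 5.63, 12.8, 10.5 and 11.1 FPKM at P14, against 22.9, 22.9, 24.4 and 23.4 FPKM at E17.5. Each P14 library was well below the lowest E17.5 library. The mean was 10.01 ± 3.08 FPKM at P14 and 23.4 ± 0.681 FPKM at E17.5 (SD, n = 4 each). This is a log2 fold change of -1.2 (SE 0.215, adjusted p = 0.00722), and of -0.97 (SE 0.0805, adjusted p = 5.68e-05) without P14 replicate 1.

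Pcdh19, a delta-2 protocadherin on the X chromosome that is mutated in a human epilepsy of females, was lower by a smaller margin. It was at 0.854, 1.04, 0.943 and 1.05 FPKM at P14 and 1.69, 1.76, 1.55 and 1.67 FPKM at E17.5. Here P14 replicate 1 was close to the other P14 libraries, and the ages did not overlap. Pcdh19 had a log2 fold change of -0.43 (SE 0.0912, adjusted p = 0.0127), and -0.40 (adjusted p = 0.00795) without P14 replicate 1.

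The other delta-2 genes were not called. Pcdh17, a protocadherin of axon growth, had 3.91, 10.1, 9.55 and 10.7 FPKM at P14 and 9.32, 11, 10.9 and 11.2 FPKM at E17.5. Its log2 fold change was -0.35 (95% interval -0.98 to 0.27), and -0.06 (interval -0.25 to 0.13) without P14 replicate 1. Pcdh10, with a like role in axons, was at 0.629 to 1.91 FPKM at P14 and 1.24 to 1.48 FPKM at E17.5. The log2 fold change of Pcdh10 was 0.17 (interval -0.071 to 0.41) without P14 replicate 1. Pcdh8, the delta-2 gene that stayed untested, was at 1.23, 0.0274, 0.813 and 0.248 FPKM in P14 replicates 1 to 4, against 0.0260 to 0.184 FPKM at E17.5. Its P14 libraries ran in the order of the epithelial markers as well, on 2 to 69 reads each. The part of epithelium in these values was not tested.

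Pcdh12, or VE-cadherin-2, is a protocadherin of endothelium and placenta, and had the largest fall of the tested members on the log2(FPKM + 1) scale. As mean FPKM at P14 over that at E17.5, Cdh4 was lower still, at 0.371 against 0.398 for Pcdh12. Without P14 replicate 1 this order was reversed, at 0.455 for Cdh4 and 0.439 for Pcdh12. Pcdh12 had 3.96, 6.07, 6.25 and 6.63 FPKM at P14, against 14, 14.7, 15 and 13.8 FPKM at E17.5. All P14 libraries were below all E17.5 libraries, with P14 replicate 1 the lowest. The mean was 5.72 ± 1.2 FPKM at P14 and 14.4 ± 0.585 FPKM at E17.5 (SD, n = 4 each), a log2 fold change of -1.21 (SE 0.147, adjusted p = 0.00170), and -1.07 (SE 0.0701, adjusted p = 2e-05) without P14 replicate 1. Rnf14 overlaps it on the opposite strand at 25.8 to 33.2 FPKM, and no source used here says if reads were counted by strand, so its level carries that uncertainty. Cdh5 and 6 of the 12 endothelial markers given above were also called lower at P14.

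The remaining genes of this kind, Pcdh20 and Pcdh15, gave no call. Pcdh20 was at 0.672 to 1.37 FPKM at P14 and 1.22 to 1.42 FPKM at E17.5, a log2 fold change of -0.18 (95% interval -0.48 to 0.13), and -0.073 (interval -0.31 to 0.17) without P14 replicate 1. Pcdh15, the partner of Cdh23 in the tip link, was at 0.255 to 0.409 FPKM at P14 and 0.205 to 0.281 FPKM at E17.5.

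The delta-1 protocadherins differed in which P14 library was high. Pcdh7 (BH-protocadherin, of brain and heart; chromosome 5, 57873487 to 58290578, plus strand) had 4.06, 11, 11.2 and 11 FPKM at P14 and 6.61, 6.61, 7.14 and 7.24 FPKM at E17.5. P14 replicates 2 to 4 had an SD of 0.0900 FPKM and lay above every E17.5 library, whereas replicate 1 was below every E17.5 library. With all libraries its log2 fold change came to 0.30 (SE 0.282, adjusted p = 0.467), and without P14 replicate 1 it was 0.61 (SE 0.0696, adjusted p = 0.000250). Whether Pcdh7 is called higher at P14 therefore rests on that library.

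Pcdh1, a protocadherin of airway and other epithelia, was the opposite case. It had 26.1, 8.76, 10.1 and 8.98 FPKM at P14 and 8.58, 9.54, 8.85 and 6.54 FPKM at E17.5. Only P14 replicate 1 stood out. The P14 libraries again ran in the order of the epithelial markers, with replicates 2 to 4 close to each other. The part of epithelium in the values of Pcdh1 was not tested. For Pcdh1 the log2 fold change was 0.49 (95% interval -0.26 to 1.24), and 0.14 (interval -0.14 to 0.42) without P14 replicate 1. Pcdh9 and Pcdh11x, the untested delta-1 genes, stayed at or under 0.208 FPKM.

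**Figure D3:**
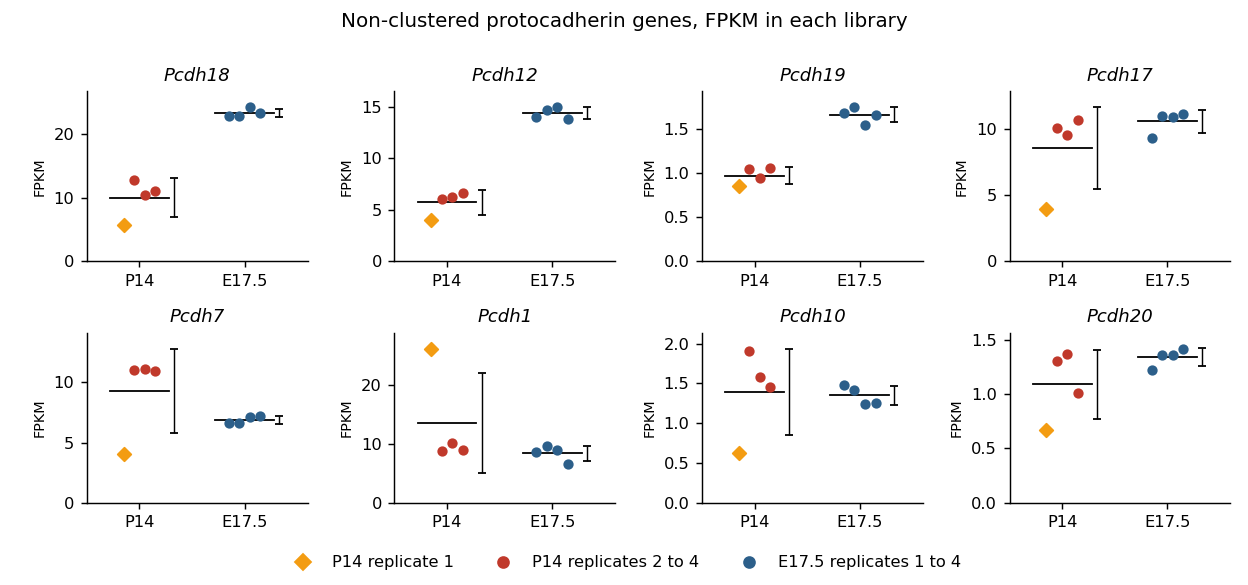
FPKM (y axis) of the 8 tested protocadherins outside the clusters in each P14 library (left, replicate 1 as a diamond) and each E17.5 library (right), with the mean as a line and the SD as a bar. Pcdh18, Pcdh12 and Pcdh19 are lower in every P14 library, Pcdh7 is higher in P14 replicates 2 to 4 but not in replicate 1, and Pcdh1 is high in P14 replicate 1 alone.

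The promoters of Pcdh7, Pcdh18 and Pcdh19 are shown because these protocadherins were called in opposite directions without P14 replicate 1, Pcdh7 higher and the other two lower. Each is 300 bases, from 250 before to 50 after the gene's start, from RefSeq on build GRCm38.p6 (the coordinates of the genes given above are on GRCm39). Pcdh7 lies at chr5:57717831-57718130 on the plus strand, Pcdh18 at chr3:49757267-49757566 on the minus strand and Pcdh19 at chrX:133688944-133689243 on the minus strand. Capitals mark CAGGTG or CACCTG, the E-box letters bound by factors of the Snail and Zeb families, searched on both strands.
Pcdh7: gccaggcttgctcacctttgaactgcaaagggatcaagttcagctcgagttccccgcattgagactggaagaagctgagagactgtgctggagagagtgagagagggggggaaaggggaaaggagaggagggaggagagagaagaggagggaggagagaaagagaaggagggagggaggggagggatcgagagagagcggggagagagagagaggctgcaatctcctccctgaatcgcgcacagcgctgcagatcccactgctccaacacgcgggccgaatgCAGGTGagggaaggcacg
Pcdh18: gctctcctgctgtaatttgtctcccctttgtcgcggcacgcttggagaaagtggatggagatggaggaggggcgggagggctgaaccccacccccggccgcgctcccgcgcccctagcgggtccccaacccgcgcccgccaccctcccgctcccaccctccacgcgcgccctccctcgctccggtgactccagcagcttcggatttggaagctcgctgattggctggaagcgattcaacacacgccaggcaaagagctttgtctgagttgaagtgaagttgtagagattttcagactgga
Pcdh19: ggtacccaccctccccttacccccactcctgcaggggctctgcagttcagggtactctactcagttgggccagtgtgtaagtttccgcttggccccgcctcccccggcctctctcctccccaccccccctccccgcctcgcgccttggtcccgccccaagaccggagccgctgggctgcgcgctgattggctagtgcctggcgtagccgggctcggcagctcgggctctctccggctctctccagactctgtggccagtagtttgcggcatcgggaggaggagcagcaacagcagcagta
The letters occurred in the Pcdh7 window and in neither of the others. They were held by 20.2% of all 32851 promoters in the RefSeq set. Of 32 members looked up, 22 had an entry, with 25 promoters, and 5 of these held the letters, those of Cdh7, Pcdh15 and Pcdh7. A match is a description of the letters in this window and no evidence of binding. Cdh1, Cdh3, Cdh4, Cdh5, Cdh11, Cdh13, Cdh16, Cdh17, Cdh19 and Pcdh11x had no entry.

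Within P14, replicate 1 was the lowest library in 34 of the 37 tested members and the highest in 3, Cdh1, Cdh17 and Pcdh1. The FPKM of replicate 1 over the mean of the other P14 libraries was below 1 in 34 tested members, and in 6789 of all 14044 tested genes. This ratio had a median of 0.478 over the tested members, against 1.02 over all tested genes. It was 24.8 for Cdh17, 16.4 for Cdh1 and 2.81 for Pcdh1. The same ratio had a median of 14.4 over the epithelial markers, 0.477 over those of blood endothelium, 0.370 over those of fibroblasts and 0.316 over those of smooth muscle. The median of the members was close to that of the endothelial list, and lay between those of interstitial cells of Cajal (0.404) and of mitosis genes (0.525). How far a smaller share of wall RNA in that library sets their P14 means was not tested.

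**Figure D4:**
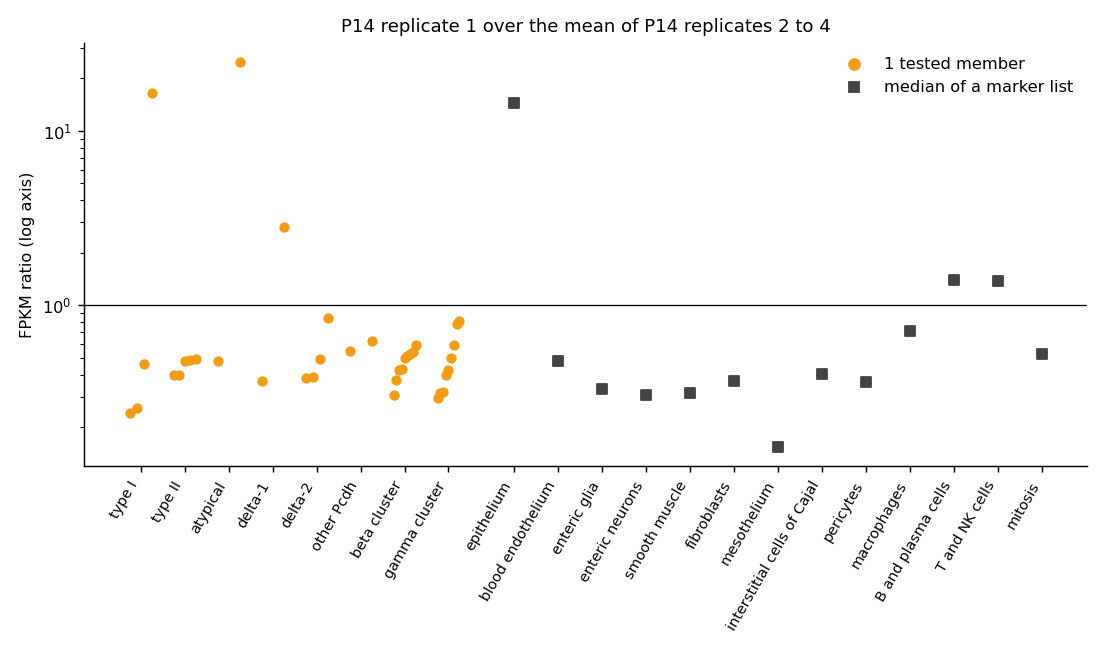
Ratio of the FPKM in P14 replicate 1 to the mean of P14 replicates 2 to 4 (y axis, log) for each tested member by subfamily (circles) and as the median of each of 13 marker lists (squares), with a line at 1. Cdh17, Cdh1 and Pcdh1 lie above the line with the epithelial list, and the other 34 tested members below it.

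The clustered protocadherins lie in 3 neighbouring arrays on chromosome 18 (GRCm39), alpha at 37063338 to 37321950, beta at 37398051 to 37654472 and gamma at 37794828 to 37974926. Every alpha gene overlaps the other alpha genes at its constant exons, as every gamma gene does the other gamma genes, so how the counting shared reads of those exons bears on their FPKM, and no source used here says how this was done. The beta genes do not overlap each other, but they are close copies, so reads may be split between them. Of the 57 clustered genes 18 were tested, 9 beta and 9 gamma. Among each 9, 1 was lower at P14, against 15% of all tested genes. These were Pcdhb7 and Pcdhga11, which had passed the filter through E17.5 alone.

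The alpha cluster was the lowest of the arrays. None of its 14 genes passed the filter, and their FPKM summed to 0.812, 2.89, 2.11 and 2.03 at P14, against 1.29, 1.42, 1.54 and 1.10 at E17.5. Pcdhac2, a C-type gene at the end of the array that does not follow the stochastic choice of the others in neurons, was the highest. It had 0.424, 1.28, 0.961 and 0.831 FPKM at P14 and 0.437, 0.634, 0.480 and 0.457 FPKM at E17.5. P14 replicates 2 to 4 were above every E17.5 library, and replicate 1 was below them. At the looser filter the log2 fold change of Pcdhac2 was 0.30 (SE 0.146, adjusted p = 0.181), and 0.43 (SE 0.107, adjusted p = 0.0150) without P14 replicate 1.

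Pcdhac1, the other C-type gene of the array, was at 0.0135 to 0.0828 FPKM at P14 and 0.0284 to 0.0597 FPKM at E17.5. Pcdha12 was the highest of the rest by mean, at 0.0407 to 0.325 FPKM at P14 and 0.161 to 0.377 FPKM at E17.5. Pcdha4 and Pcdha6 were at 0 in every library, where 3 reads would be at most 0.0402 and 0.0323 FPKM, and Pcdha7 had 3 reads in all. The table also lists 3 predicted loci, Gm37013, Gm38666 and Gm38667, that start 41, 6 and 9 bases from Pcdha4, Pcdha6 and Pcdha7, run to the end of the gamma array and are at 0 throughout. How reads were shared between these loci and the alpha genes was not tested.

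The sum of the beta cluster overlapped between the ages. Its 22 genes summed to 14.1, 32.9, 29.9 and 31.8 FPKM at P14, against 29.4, 27.9, 28.6 and 31.3 FPKM at E17.5. P14 replicate 1 lay far below every E17.5 library, replicates 2 and 4 slightly above all of them, and replicate 3 among them. Pcdhb17 was the highest, with 2.90, 6.49, 5.96 and 5.02 FPKM at P14 and 5.72, 4.01, 4.74 and 5.39 FPKM at E17.5. Its ages overlapped, with a 95% interval of the log2 fold change from -0.50 to 0.49, and from -0.089 to 0.48 without P14 replicate 1. Pcdhb17, Pcdhb20 and Pcdhb22, at the far end of the array, together gave 41.8% to 45.8% of the beta sum at P14 and 39.8% to 44.5% at E17.5.

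Pcdhb7 was the beta gene called lower. It had 0.529, 0.829, 0.883 and 0.954 FPKM at P14, against 1.47, 1.72, 1.47 and 1.92 FPKM at E17.5. No P14 library reached the lowest E17.5 library. Pcdhb7 had a log2 fold change of -0.56 (SE 0.118, adjusted p = 0.0129), and -0.48 (SE 0.107, adjusted p = 0.00633) without P14 replicate 1. The gene passed the filter through E17.5 alone, so it could enter the test only by being higher at that age.

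Along the array, the 3 neighbours of Pcdhb7 on its 5′ side also had lower means at P14. Mean FPKM at P14 over that at E17.5 was 0.384 for Pcdhb4, 0.425 for Pcdhb5, 0.579 for Pcdhb6 and 0.485 for Pcdhb7, and 0.429, 0.463, 0.571 and 0.539 without P14 replicate 1. Over the 15 beta genes that follow, the ratio ran from 0.759 for Pcdhb16 to 1.46 for Pcdhb12 and was above 1 in 7. On leaving out P14 replicate 1 it ran from 0.862 for Pcdhb16 to 1.67 for Pcdhb15 and was above 1 in 12. Pcdhb5 had 0.343, 0.512, 0.408 and 0.621 FPKM at P14 and 1.36, 0.929, 1.03 and 1.12 FPKM at E17.5, which do not overlap. In Pcdhb4 and Pcdhb6 the ages overlapped. At the looser filter Pcdhb4 (-0.47, adjusted p = 0.0495) and Pcdhb5 (-0.52, adjusted p = 0.0150) were called lower beside Pcdhb7, and Pcdhb6 was not (-0.27, adjusted p = 0.162). This run of neighbours was picked out after its values were seen, and no test of position was made.

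Higher calls in the beta cluster appeared only without P14 replicate 1. Pcdhb14, at 0.767, 2.23, 1.35 and 2.55 FPKM at P14 and 1.38, 1.16, 1.37 and 1.10 FPKM at E17.5, then had a log2 fold change of 0.42 (SE 0.152, adjusted p = 0.0487). Its ages still overlapped, since P14 replicate 3 lay below the highest E17.5 library. At the looser filter without that library, Pcdhb2 (0.29, adjusted p = 0.0292) and Pcdhb15 (0.35, adjusted p = 0.0302) were called higher instead.

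The gamma cluster was carried by Pcdhgc3, its most widely expressed C-type gene. Pcdhgc3 had 6.69, 15.7, 16.5 and 17.9 FPKM at P14 and 21.6, 22.1, 18.4 and 16.7 FPKM at E17.5. The ages overlapped, since P14 replicate 4 exceeded E17.5 replicate 4. On the log2 scale Pcdhgc3 differed by -0.52 (SE 0.283, adjusted p = 0.210), and by -0.22 (95% interval -0.46 to 0.03) without P14 replicate 1. It made up 45.0% to 50.7% of the gamma sum at P14 and 44.9% to 51.6% at E17.5. The 21 gamma genes summed to 14.9, 33.7, 32.5 and 35.4 FPKM at P14, against 43.6, 42.8, 39.9 and 37.1 FPKM at E17.5, so every P14 library was below every E17.5 library in the sum.

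The other C-type gamma genes were low and showed no such difference. Pcdhgc4 averaged 0.700 ± 0.305 FPKM at P14 and 0.687 ± 0.161 FPKM at E17.5, and Pcdhgc5 averaged 0.209 ± 0.0897 FPKM at P14 and 0.221 ± 0.0951 FPKM at E17.5 (SD, n = 4 each). The 12 a-type genes summed to 4.97 to 9.41 FPKM at P14 and 11.05 to 12.7 FPKM at E17.5. The 6 b-type genes summed to 2.82 to 7.46 FPKM at P14 and 8.15 to 8.61 FPKM at E17.5. In both sums no P14 library reached the lowest E17.5 library, with or without replicate 1.

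Pcdhga11 was the gamma gene called lower, at 0.363, 0.628, 0.645 and 0.920 FPKM at P14 and 1.57, 1.15, 1.28 and 1.22 FPKM at E17.5. It, too, had passed the filter through E17.5 alone. Its log2 fold change was -0.50 (SE 0.129, adjusted p = 0.0262), and -0.41 (adjusted p = 0.0198) without P14 replicate 1. The call was lost on leaving out P14 replicate 2 or 3 or any single E17.5 library, with adjusted p of 0.0518 to 0.0688. Pcdhgb2 and Pcdhgb6 did not overlap between the ages either, but their adjusted p was 0.0529 and 0.126, and 0.0517 and 0.0510 without P14 replicate 1. At the looser filter Pcdhga12 was also called lower (-0.74, SE 0.170, adjusted p = 0.0227). It had 0.0982, 0.766, 0.347 and 0.350 FPKM at P14 and 1.43, 1.12, 1.70 and 0.949 FPKM at E17.5.

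**Figure D5:**
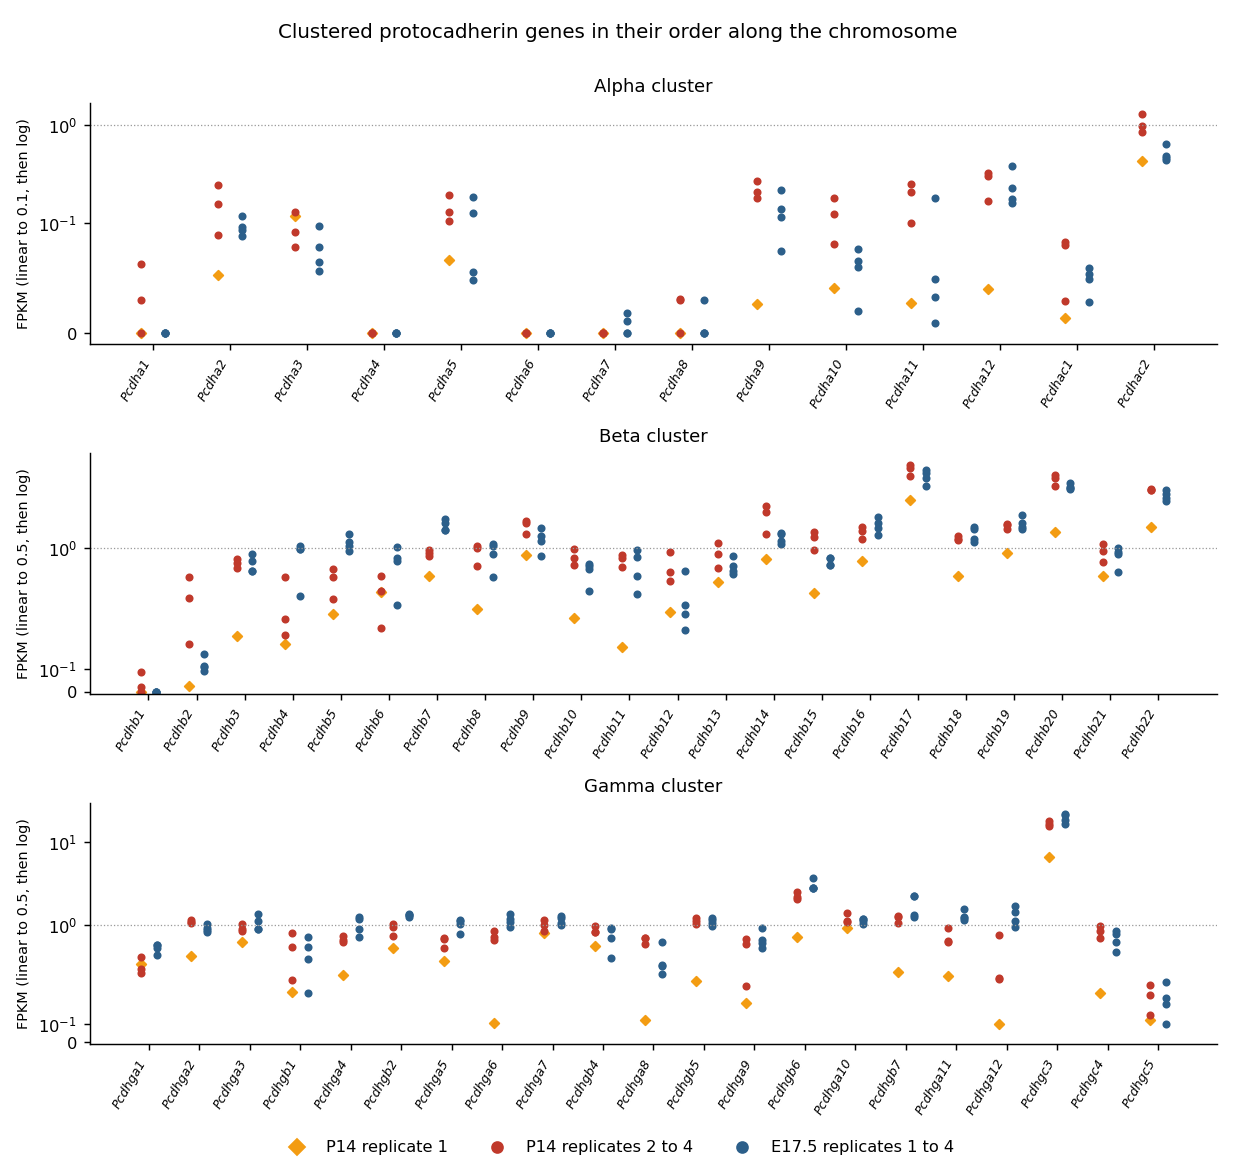
FPKM of each clustered protocadherin gene (y axis, linear near 0 and log above) in the P14 libraries (left of each pair, replicate 1 as a diamond) and the E17.5 libraries (right), in order along chromosome 18, with a dotted line at 1 FPKM. The alpha genes lie mostly under the line, the P14 means of Pcdhb4 to Pcdhb7 are lower, with overlap between the ages in Pcdhb4 and Pcdhb6, and Pcdhgc3 is far above the other gamma genes at both ages.

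Among the genes that work with cadherins, the catenins gave a single call with all libraries. Of 16 catenins and other cytoplasmic partners 15 were tested, 1 was higher at P14 and none lower, against 9.72% and 15% of all tested genes. Ctnnb1, beta-catenin, was the highest, with 535, 255, 241 and 239 FPKM at P14 and 312, 304, 323 and 333 FPKM at E17.5. P14 replicate 1 was above and the other P14 libraries below all E17.5 libraries. Its log2 fold change was -0.09 (95% interval -0.68 to 0.49) with all libraries and -0.37 (SE 0.0694, adjusted p = 0.00266) without P14 replicate 1. Ctnnal1, alpha-catulin, was called higher, at 9.09 to 14.1 FPKM at P14 and 6.61 to 7.11 FPKM at E17.5 (0.72, SE 0.141, adjusted p = 0.00998). When P14 replicate 1 was left out, 2 were higher, Ctnnal1 (0.84) and the neuronal alpha-catenin Ctnna2 (0.32, adjusted p = 0.0472), and 2 lower, Ctnnb1 and the p120-catenin gene Ctnnd1 (-0.60, adjusted p = 0.000455). The shares of all tested genes were then 22.6% higher and 26.9% lower.

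Of 9 desmosomal cadherins 2 were tested, Dsc2 and Dsg2, the forms of simple epithelia. Dsc2 was at 45.6, 1.83, 5.39 and 4.12 FPKM at P14 and 0.346 to 1.10 FPKM at E17.5. Dsg2 was at 39.6, 1.07, 5.50 and 3.37 FPKM at P14 and 0.461 to 0.612 FPKM at E17.5. Both followed the epithelial order of the P14 libraries and were not called with all libraries (2.22 and 2.19, adjusted p = 0.0694 and 0.0788). Leaving out P14 replicate 1 or 2 brought the adjusted p of both to between 0.00449 and 0.0391. The part of epithelium in their values was not tested. Dsg2 had passed the filter through P14 alone, so it could enter the test only by being higher at that age.

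In the wider superfamily 12 of 18 genes were tested, 3 were higher and 2 lower at P14, against 9.72% and 15% of all tested genes. The counts were 7 higher and 3 lower without P14 replicate 1, against 22.6% and 26.9%. Cdhr5 and Cdhr2, the protocadherins that link microvilli of the brush border, had 1258 and 659 FPKM in P14 replicate 1, 6.49 to 103 and 2.87 to 47.6 FPKM in the other P14 libraries, and at most 0.256 and 0.0639 FPKM at E17.5. Their log2 fold changes were 6.01 and 5.14 (SE 1.36 and 1.37, adjusted p = 0.0169 and 0.0299), and 4.65 and 3.74 without P14 replicate 1 (adjusted p = 0.00403 and 0.00813). Both passed the filter through P14 alone, so they could enter the test only by being higher at that age. The call of Cdhr5 was lost without E17.5 replicate 3 (adjusted p = 0.0512), and that of Cdhr2 without P14 replicate 3 or any single E17.5 library (0.0686 to 0.0775). Cdhr4, a little-studied member, was lower, at 1.05 to 2.35 FPKM at P14 and 4.65 to 6.82 FPKM at E17.5 (-1.33, adjusted p = 0.00241). The last of the 5 calls, which the rule for named genes did not pick, were Fat4, a large cadherin of planar polarity, at -1.19 (adjusted p = 0.00462), and Clstn1, a calsyntenin, at 0.76 (adjusted p = 0.00874). All 3 were still called without P14 replicate 1, Cdhr4 at -1.19, Fat4 at -0.99 and Clstn1 at 0.65.

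Of the E-box factors known to repress Cdh1 in other settings, Snai2, Zeb2 and Snai1 were lower at P14. The list has 7 genes, of which 6 were tested, 3 were lower and none higher, against 15% and 9.72% of all tested genes. The median log2 fold change of the list was -1.02. Snai2 was at 5.62, 7.91, 9.64 and 6.92 FPKM at P14, against 34.6, 33.8, 37.9 and 37.2 FPKM at E17.5 (-2.13, SE 0.149, adjusted p = 0.000358). Zeb2 was at 4.59 to 7.88 FPKM at P14 and 20.4 to 25 FPKM at E17.5 (-1.68, adjusted p = 0.000726), and Snai1 at 4.57 to 7.54 FPKM at P14 and 14.9 to 20.1 FPKM at E17.5 (-1.34, adjusted p = 0.00163). In all 3 the ages were far apart and P14 replicate 1 was the lowest library, and the calls held without it. Without that library Twist1 was called in the opposite direction (1.38, adjusted p = 0.00254). Twist1 was at 2.62, 16.7, 8.48 and 12.4 FPKM at P14 and 2.93 to 5.63 FPKM at E17.5, and with all libraries its log2 fold change of 0.91 was not called (adjusted p = 0.178). Zeb1 and Twist2 were not called in either fit. Mitosis genes were lower at P14 in 10 of 10 cases, with and without P14 replicate 1, against 15% and 26.9% of all tested genes. Cenpf lost the call on leaving out any of 5 single libraries, Ccnb2 any of 3 and Plk1 either of 2 (adjusted p up to 0.0801).

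The list of factors that shape the clustered protocadherin locus holds CTCF, cohesin with its loader and release factor, and silencing factors. All 13 were tested, with a median log2 fold change of -0.48 in the fit of all libraries. In that fit 9 were lower at P14 and none higher, against 15% and 9.72% of all tested genes. Without P14 replicate 1, 13 were lower, against 26.9% of all tested genes. Among them were Smchd1, a repressor of the clusters, at 8.06 to 9.33 FPKM at P14 and 13.5 to 16.5 FPKM at E17.5 (-0.73, SE 0.10, adjusted p = 0.00256), and the cohesin subunit Stag2 at 20.3 to 22 FPKM at P14 and 29.7 to 37.6 FPKM at E17.5 (-0.64, adjusted p = 0.00590). Dnmt3b, which methylates the cluster promoters, was at 1.35 to 1.70 FPKM at P14 and 2.74 to 3.17 FPKM at E17.5 (-0.64, adjusted p = 0.00462). Rad21, the cohesin subunit with the highest level on the list, was at 56.4 to 71.9 FPKM at P14 and 81.5 to 98.9 FPKM at E17.5 (-0.44, adjusted p = 0.0281), a call lost without P14 replicate 2 or 4 or E17.5 replicate 2, 3 or 4 (adjusted p of 0.0534 to 0.0879). The calls of Nipbl and Stag1 were each lost on leaving out any of 6 single libraries (adjusted p of 0.0551 to 0.0779 and 0.0573 to 0.107). Cohesin and the other factors also act in dividing cells, and the mitosis genes given above were lower together with this list. Their part was not tested.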

How the data were processed

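Expression was deposited by the authors as FPKM per gene and library, beside each gene's length, position and biotype. The submitters' processing notes list CASAVA, fastp, HISAT2, featureCounts, DESeq2 1.20.0 and build GRCm39 without their roles. The sources used here do not say how the FPKM was made, or how reads on overlapping genes, the opposite strand or near-identical copies were counted. FPKM times gene length came out as whole reads for 100% of values (tolerance 1e-06). The authors' scaling used a library size below the assigned reads in P14 replicate 1 (ratio 0.780) and slightly above them elsewhere (1.02 to 1.06).

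The sample titles gave group and replicate. Two-sided tests used limma 3.58.1 under R 4.3.3, with statmod 1.5.0, on log2(FPKM + 1), with trended prior variance and robust moderation, over the 14044 genes with 1 FPKM or more in at least 4 libraries. The code was tested on simulated data with known changes. The alternatives were other pseudocounts, filters and scalings, voom on the recovered reads, a replicate block, ordinary moderation and leaving out each library; 1 more, without P14 replicate 1 and rescaled to TPM, was chosen after seeing the data. Gene lists are described by counts and medians, and all 185 list symbols matched by name. The members, lists and tests were chosen with earlier results of these data known.

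Named genes were every Cdh and non-clustered Pcdh gene, the called members and highest tested member of each cluster with the C-type genes, and, per list of partners, the 3 called members that changed most, where there were so many, and the highest member. Pcdha12, Pcdhb2, Pcdhb4, Pcdhb5, Pcdhb6, Pcdhb12, Pcdhb14 to Pcdhb16, Pcdhb20, Pcdhb22, Pcdhga7, Pcdhga10, Pcdhgb5, Pcdhga12, Pcdhgb2, Pcdhgb6, Dsg2, Fat4, Clstn1, Ctnna2, Ctnnd1, Twist1, Twist2, Zeb1 and the endothelial markers fall outside this rule; their values had been seen before they were chosen. Nipbl, Stag1, Cenpf, Ccnb2 and Plk1 also fall outside the rule and were named because their calls depended on single libraries. Promoters were read from a RefSeq table. Figures were drawn with matplotlib 3.10.9.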

Additional observations from a re-analysis of the deposited data

Results flagged for a closer look

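In 27 genes given with values, each age's 4 libraries were examined for a library whose gap to its nearest neighbour, as a share of the group's range, exceeded 0.829 (Dixon's 95% value for 4 samples). This occurred in 8 of 54 groups, where chance gives about 1 in 20, and 6 of the 8 concern P14 replicate 1. P14 replicate 1 was far above the other P14 libraries for Cdh17 (gap share 0.918), Cdh1 (0.869) and Pcdh1 (0.923). It was far below them for Pcdh7 (0.975), Cdh4 (0.890) and Pcdh17 (0.831). E17.5 replicate 1 was below the other E17.5 libraries for Pcdh17 (0.850), and E17.5 replicate 4 was above them for Cdh3 (0.836).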

How the results depend on the processing

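The number of members called higher at P14, 0 in the reported fit, was 1 with a pseudocount of 0.1, 1 with quantile normalization, 0 to 4 on leaving out single libraries and 3 without P14 replicate 1 after rescaling to TPM. It was 0 under the other alternatives run. The number called lower, 9, was 5 with a filter of 5 FPKM, which tested 13 members, 6 to 11 on leaving out single libraries, and 8 to 13 under the other alternatives apart from the replicate block. Same-numbered libraries did not vary together (correlations of -0.064 to 0.0095), so the numbers do not pair them; the fit with the replicate block called 6 lower and 0 higher, without Cdh10, Pcdh19 and Pcdhga11. Beta genes called lower, 1 as reported, numbered 3 at a filter of 0.1 FPKM, 2 with no filter and 0 at 5 FPKM; gamma genes, also 1, numbered 0 to 3 over the alternatives. The direction changed without P14 replicate 1 in 8 of the 37 tested members, none called in either fit: Cdh3, Cdh24, Pcdh10, Pcdhb17, Pcdhb20, Pcdhb22, Pcdhgb5 and Pcdhga10. On leaving out single libraries the log2 fold change ran from -0.57 to 0.039 for Cdh3, -0.23 to 0.073 for Cdh24, -0.11 to 0.17 for Pcdh10 and -0.12 to 0.20 for Pcdhb17, the upper end being without P14 replicate 1. With TPM rescaling in addition it was 0.012 for Cdh24, 0.13 for Pcdh10 and 0.14 for Pcdhb17. Median-of-ratios scaling gave 0.016 for Pcdh10 and 0.024 for Pcdhb17, and voom gave 0.0079 for Pcdhb17. Rescaling to TPM moved the median log2 fold change of all tested genes to -0.16, against 0.0022 as deposited, and the share of higher calls among all calls to 23.9%, against 39.3%. Without P14 replicate 1 all tested genes called higher numbered 3176, against 1365 with all libraries. Over members and libraries, the median was 29 reads in the 55 untested members and 6 in the alpha genes, so small differences there were not detectable at this depth.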
